A study of Oryza sativa Indica Group and Oryza sativa Japonica Group with 20 samples.

Results

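Peaks of the active histone mark H3K4me3 and of the repressive mark H3K27me3 were compared within male meiocytes of Azucena, a japonica rice cultivar. The comparison used the 4 peak lists of Azucena meiocytes in the series, chosen by cultivar, cell type and antibody, out of 20 samples in all. These lists held 96382 of the 187445 peaks deposited for the series' 8 meiocyte peak lists. All 4 libraries came from wild-type meiocytes at prophase of the first meiotic division, which had been freed from dissected anthers under the microscope and collected by capillary. An Abcam antibody to H3K4me3 gave 2 libraries, and a Diagenode antibody to H3K27me3 gave the other 2. No untreated, antibody-free or somatic library enters the comparison. The labels do not say how many cells or plants went into a library, nor that replicates came from separate plants, so the spread between replicates may be technical. The lists contain no expression values, so the identity of the cells could not be checked against marker genes.

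H3K4me3 is written by SET-domain methyltransferases and marks the start of transcribed genes, where it recruits proteins that keep promoters open. H3K27me3 is written by Polycomb repressive complex 2 and marks genes held silent in a given cell type, such as developmental regulators. In plants it often covers single genes rather than long domains. In CUT&Tag an antibody directs a transposase to the chromatin that carries the mark, and the tagged fragments are sequenced. Each library is an average over many cells and both chromosome copies, so 2 marks at 1 place need not sit on 1 nucleosome or in 1 cell.

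The libraries were of similar depth. In units of 1000000 reads (M), the authors' table gave 9.22 and 11.77 M uniquely aligned reads for H3K4me3 replicates 1 and 2, and 10.11 and 10.28 M for H3K27me3 replicates 1 and 2. H3K4me3 gave 30257 and 31140 peaks, and H3K27me3 gave 17362 and 17623. Most peaks lay on the 12 chromosomes, and 25, 50, 50 and 53 peaks in the same order lay on unplaced contigs, which are described separately. A peak is placed below by its summit, the base with the strongest signal. The length of a chromosome is counted here up to the last base that any Azucena list covers, which is a lower bound.

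The first question was how far H3K27me3 lies from H3K4me3. Many H3K27me3 summits sat almost on top of an H3K4me3 summit, few lay just beside one, and most of the rest lay several kb away. The median distance from an H3K27me3 summit to the nearest H3K4me3 summit was 2834 bp for H3K27me3 replicate 1 against H3K4me3 replicate 1, and 2600 bp against H3K4me3 replicate 2. For H3K27me3 replicate 2 the medians were 2783 bp and 2526.5 bp. Over the H3K27me3 libraries, each averaged over its partners, the median was 2686 ± 44.0 bp (SD, n = 2). The replicates of 1 mark lay far closer to each other, with median distances of 117 and 121 bp between the H3K27me3 lists and of 126 and 132 bp between the H3K4me3 lists.

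The spread of these distances was wide. In the 4 library pairs, a 10th percentile of 72 to 82 bp and a quartile of 308 to 371 bp stood against an upper quartile of 6856 to 7405 bp and a 90th percentile of 13807 to 14883 bp. The most isolated H3K27me3 summit lay 157029 bp from H3K4me3 replicate 1 and 131121 bp from H3K4me3 replicate 2. Seen from H3K4me3, which has more peaks, the distances were longer, with medians of 8567 to 8726 bp to the nearest H3K27me3 summit.

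Closeness was set against the share of the genome that lies equally close, counted exactly over the bases of the 12 chromosomes. Within 1000 bp of an H3K4me3 summit lay 34.1% of the summits of H3K27me3 replicate 1 (95% Wilson interval 33.4 to 34.8, counting error only) and 34.4% of those of replicate 2 (33.7 to 35.1), both against H3K4me3 replicate 1, whose surroundings made up 15.5% of the bases. Against H3K4me3 replicate 2 the shares were 35.3% and 35.7%, with 15.9% of the bases. The share of summits exceeded the share of bases by a factor of 2.23 ± 0.0164 (SD over H3K27me3 libraries, n = 2). Where the bases were counted within the 1 Mb bin of each summit, so that only local density entered, the factor was 2.01.

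The excess was concentrated close to the summit. H3K27me3 summits were 7.26 to 7.85 times as dense within 100 bp of an H3K4me3 summit as over all bases, 4.15 to 4.54 times between 101 and 200 bp, and 1.28 to 1.35 times between 401 and 500 bp. From there on the density fell under the genome average. It was 0.694 to 0.729 of the average from over 1000 to 1500 bp and 0.675 to 0.701 from over 2000 to 3000 bp. It returned to 0.967 to 1.00 from over 5000 to 10000 bp and fell again farther out, to 0.515 to 0.575 from over 20000 to 50000 bp. H3K27me3 summits were thus dense on H3K4me3 summits, thinned out at 1 to 3 kb from them, and near the genome average at 5 to 10 kb. On all 12 chromosomes and in each of the 4 library pairs, relative densities were 2.68 to 4.78 within 500 bp and 0.606 to 0.793 from over 1000 to 3000 bp. The average includes the close summits, so their excess by itself lowers the mean relative density of the remaining bases below 1. A belt under 1 on each chromosome follows in part from this, and the belt was not set against the remaining bases alone.

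**Figure D1:**
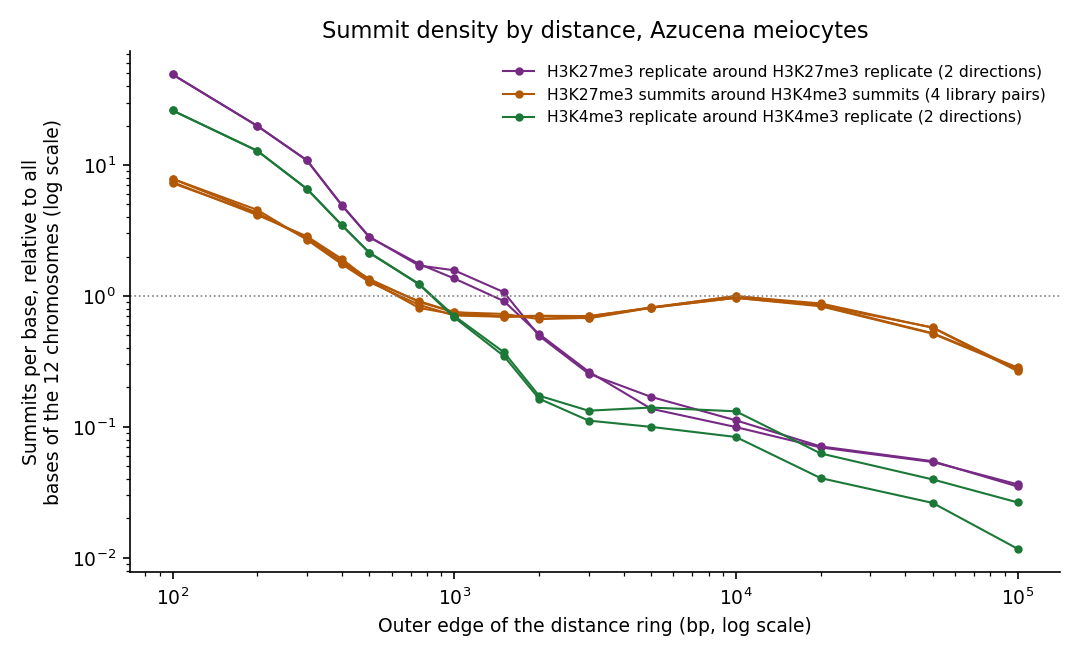
Density of summits in rings of growing distance around the summits of another list, relative to the mean over all bases of the 12 chromosomes (dotted line at 1); both axes are logarithmic and each point stands at the outer edge of its ring. The orange lines, 1 for each of the 4 pairs of an H3K27me3 and an H3K4me3 library, start at 7.26 to 7.85, dip to about 0.7 between 1 and 3 kb and return to 0.967 to 1.00 at 5 to 10 kb, while the lines between replicates of 1 mark start higher and lie below the orange lines beyond 2 kb.

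Peaks of 1 list cannot touch each other. The closest neighbours within a list were 286 and 281 bp apart in H3K4me3 and 270 and 269 bp apart in H3K27me3, edge to edge. The part of such gaps in the thinner belt between the marks was not tested.

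H3K27me3 peaks close to H3K4me3 differed from those farther away. Of the H3K27me3 peaks, 34.1% and 34.9% in replicates 1 and 2 had an H3K4me3 summit of either library within 500 bp of their own summit. These 5912 and 6140 peaks had a median width of 963 and 956 bp and a median fold enrichment of 3.89 and 4.04. Fold enrichment is the authors' value in the lists, the ratio of the coverage at the summit to its local background. Peaks over 2000 and up to 10000 bp from H3K4me3 made up 36.4% and 36.2%, with a median width of 692 and 654 bp and a median fold of 3.18 and 3.26. Peaks beyond 10000 bp made up 14.4% and 14.2%, with widths of 724 and 687 bp and folds of 3.36 and 3.46. Peaks over 500 and up to 2000 bp from H3K4me3 had widths of 731 and 723 bp and folds of 3.25 and 3.31. In both replicates the peaks on H3K4me3 thus had the highest median width and fold of the distance classes. The share over 2000 bp was not highest there, at 7.27% and 6.43% against 7.37% and 6.89% in the class over 500 and up to 2000 bp.

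The classes differed as much in their company. H3K27me3 peaks within 500 bp of H3K4me3 had the longest median distance to the nearest H3K27me3 summit of their own list, at 5907 and 5605 bp. Those over 500 and up to 2000 bp away had such a neighbour at 2067 and 2044 bp, and those over 2000 and up to 10000 bp away at 2815 and 2657 bp. Away from H3K4me3, H3K27me3 peaks thus had closer neighbours of their own mark. Local background moved with these classes, with medians of 10.5 and 10.4 reads within 500 bp and of 14.5 and 13.6 reads from over 2000 to 10000 bp, and its part in the fold values was not tested.

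From the side of H3K4me3, 18.9% and 19.1% of the peaks of replicates 1 and 2 had an H3K27me3 summit of either library within 500 bp. They were narrower than the H3K4me3 peaks farther than 10000 bp from H3K27me3, with median widths of 737 and 745 bp against 853 and 861 bp. Their summit coverage was also lower, at 32 and 33 reads against 41 and 43. The direction was thus opposite for the marks, since near the other mark H3K27me3 peaks were wider and H3K4me3 peaks narrower. Peaks over 2000 bp were most frequent among the H3K4me3 peaks over 500 and up to 2000 bp from H3K27me3, at 4.58% and 4.79%, against 1.98% and 2.15% beyond 10000 bp.

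Overlap was then followed over 5 width classes of equal peak number. The share of H3K27me3 peaks that overlapped an H3K4me3 peak of either replicate by at least 1 bp was 24.4% and 23.9% in the narrowest class and 57.7% and 59.4% in the widest, and it rose from each class to the next in both replicates. In H3K4me3 the share that overlapped H3K27me3 was 24.5% and 24.7% in the narrowest class, 18.6% and 18.8% in the next to widest, and 23.2% and 23.6% in the widest. The H3K27me3 share thus grew with width and the H3K4me3 share did not. A wider peak has more bases with which to overlap, and the part of width itself in these shares was not tested. Replicate overlap moved with width in both marks. The narrowest class overlapped the other replicate in 58.4% and 58.0% of H3K27me3 peaks and in 70.8% and 62.2% of H3K4me3 peaks, and the widest in 99.8% to 100% of peaks in all 4 libraries.

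The next question was the order of the marks along the chromosome. An H3K27me3 summit had another H3K27me3 summit as its nearest neighbour in 42.6% to 44.2% of cases over the 4 library pairs, although H3K27me3 made up only 35.8% to 36.8% of the summits of each pair. For H3K4me3 the shares were equal within 1 percentage point, at 63.0% to 63.5% of neighbours and 63.2% to 64.2% of summits. H3K27me3 thus had its own kind beside it more often than its number gives. Peaks of 1 list cannot touch each other while peaks of different marks can overlap, which lowers the own-mark shares. The part of this was not tested, so the near equality in H3K4me3 cannot be read as a lack of grouping. Runs of H3K27me3 summits with no H3K4me3 summit between them held 1.80 to 1.84 summits on average, and runs of H3K4me3 3.17 to 3.23. The longest H3K27me3 run without an H3K4me3 summit of either replicate lay on chromosome 12 in both libraries. It held 29 summits in replicate 1, from position 24987758 to 25137220, and 26 in replicate 2, from 24986859 to 25133374, in the coordinates of the Azucena lists. These runs spanned 149.5 and 146.5 kb.

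Spacing was measured from each summit to the next summit of the same list. H3K4me3 peaks were spaced more evenly, and H3K27me3 peaks came in close groups separated by long empty stretches. The median spacing was 7655 and 7493.5 bp in H3K4me3 replicates 1 and 2, and 8670 and 8400 bp in H3K27me3 replicates 1 and 2. Both H3K27me3 libraries lay above both H3K4me3 libraries, with means of 8535 ± 191 and 7574 ± 114 bp (SD, n = 2 each) and a ratio of 1.13. The two-sided exact permutation p over libraries was 0.333, the smallest that 6 relabellings of 2 against 2 libraries allow, and this limit holds for every comparison of the marks here. The direction depended on which peaks were kept, since with each list cut to its strongest peaks, as many as in the shortest list, the ratio was 0.651. This cut changes the number and the strength of the peaks together, and their parts were not tested.

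The median hides a crossing. H3K27me3 spacings were shorter than those of both H3K4me3 libraries at every percentile from 1 to 42, and longer at every percentile from 45 to 99. The 10th percentile was 1411 and 1381 bp for H3K27me3 against 2154 and 2105 bp for H3K4me3, and the 90th 56082 and 55826 bp against 25579 and 24909 bp. Neighbours within 2000 bp made up 18.3% and 18.6% of H3K27me3 pairs and 9.05% and 9.43% of H3K4me3 pairs. H3K27me3 was thus the mark with both the closest and the most distant neighbours. Its fewer peaks by themselves lengthen spacings, and the percentiles and long spacings are not given here for equal peak numbers. Spacings over 50000 bp held 52.5% and 52.3% of the length spanned by H3K27me3 and 21.7% and 20.8% of that spanned by H3K4me3. The longest spacing reached 1273829 and 984076 bp in H3K27me3 and 421257 and 421746 bp in H3K4me3. The coefficient of variation of the spacings was 1.75 and 1.74 for H3K27me3 and 1.44 and 1.42 for H3K4me3.

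Clustering was summarised by an index that is 0 on average where peaks fall evenly at random and independently of each other. Removing peaks at random does not change its expected value, but removing them by strength can. It is the variance of the peak count per bin minus the mean, divided by the square of the mean, taken within each chromosome and averaged over the 12. In bins of 100 kb it was 0.184 and 0.179 in H3K4me3 and 0.399 and 0.405 in H3K27me3. The means of 0.182 ± 0.00386 and 0.402 ± 0.00405 (SD, n = 2 each) differed by a factor of 2.21 (two-sided exact permutation p 0.333), well beyond the spread between replicates. None of 15 alternatives reversed this order, and the ratio ranged from 1.16 to 3.43. Those that left out 1 library or blocked on replicate number could not have reversed it, since the libraries of the marks did not overlap.

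The size of the bin decided how large the contrast was. In bins of 10 kb the index was -0.108 and -0.109 for H3K4me3, and 0.908 and 0.913 for H3K27me3. Over the chromosomes, that of H3K4me3 ran from -0.241 to 0.0205 in replicate 1 and from -0.211 to 0.00875 in replicate 2. Peaks of 1 list cannot touch each other, which lowers the index in small bins, and the part of this in the negative values was not tested. In bins of 50 kb it was 0.169 and 0.163 against 0.565 and 0.573, and in bins of 1 Mb 0.150 and 0.150 against 0.175 and 0.174. The marks therefore differed most at short range and were close to each other at the scale of 1 Mb. In bins of 100 kb, 3.09% and 2.67% held no H3K4me3 peak and 10.7% and 10.5% no H3K27me3 peak. The densest 10% of bins held 19.3% and 19.2% of H3K4me3 peaks and 26.4% and 26.3% of H3K27me3 peaks. Unlike the index, these bin shares also move with the number of peaks, and they are not given here for equal peak numbers.

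**Figure D2:**
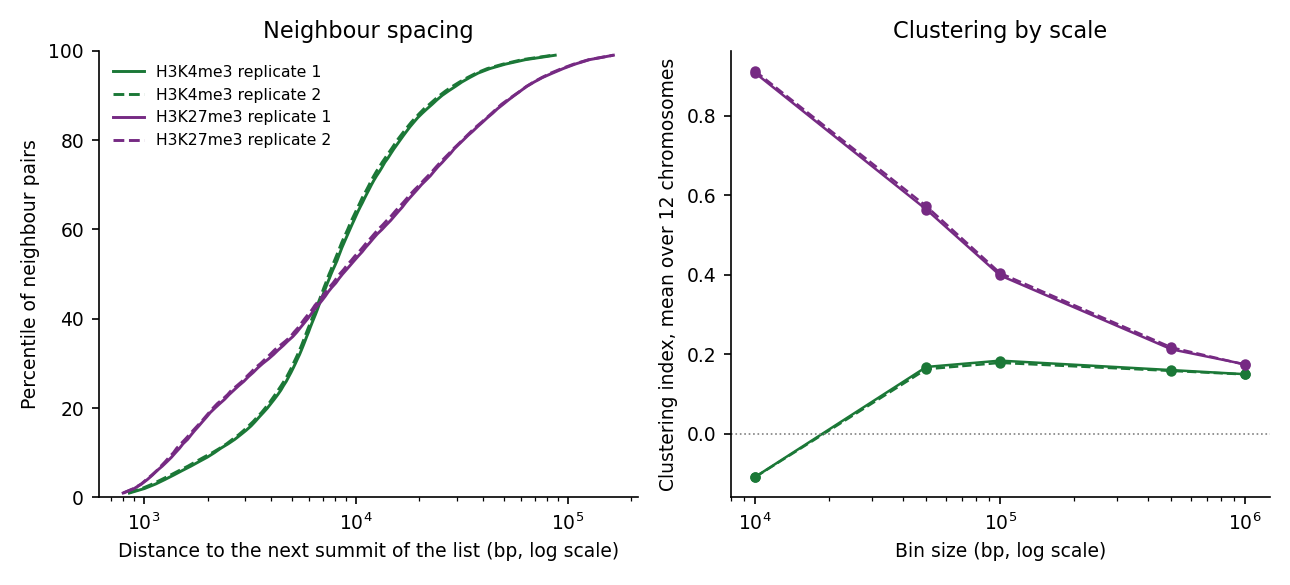
Left, percentiles of the distance from each summit to the next of the same list (bp, log scale) in the 2 libraries of each mark; right, the clustering index, averaged over 12 chromosomes, against bin size (bp, log scale). The spacing curves cross between percentiles 42 and 45, and the index of H3K27me3 lies above that of H3K4me3 at every bin size, by most in bins of 10 kb (0.908 and 0.913 against -0.108 and -0.109).

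The order of the marks in clustering held on each of the 12 chromosomes, where both H3K27me3 libraries lay above both H3K4me3 libraries. H3K4me3 was most even on chromosome 1, with an index of 0.0507 and 0.0534, followed by chromosomes 2 and 3, at 0.0638 to 0.0878. Its highest value was on chromosome 11 in replicate 1, at 0.289, and on chromosome 12 in replicate 2, at 0.301, and chromosomes 4, 9 and 10 were close to them, at 0.246 to 0.276. H3K27me3 had its lowest index on chromosome 2, at 0.282 and 0.281, and its highest on chromosome 9, at 0.593 and 0.513. The H3K27me3 replicates lay farther apart on chromosome 9 than on any other chromosome, but the lower H3K27me3 value exceeded the higher H3K4me3 value of 0.276. Spacing differed in 1 place. H3K27me3 had the longer median spacing on 11 chromosomes and the shorter on chromosome 9, with 7408 and 7305 bp against 7908 and 7927 bp.

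Peak numbers were shared out differently over the chromosomes. For every 100 H3K4me3 peaks there were 56.9 H3K27me3 peaks over the 12 chromosomes, from 47.9 on chromosome 3 to 72.4 on chromosome 11. Relative to each library's own genome-wide density, H3K27me3 was above H3K4me3 on chromosomes 4, 6, 8, 9, 10, 11 and 12, and below it on 1, 2, 3, 5 and 7, with no overlap of the libraries on any. H3K4me3 density varied more, from 61.4 and 63.8 peaks per Mb on chromosome 11 to 97.2 and 99.9 on chromosome 3. H3K27me3 ranged from 39.5 and 40.3 peaks per Mb on chromosome 5 to 52.9 and 54.6 on chromosome 1.

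The closeness of the marks followed another order. The share of H3K27me3 summits within 1000 bp of H3K4me3 exceeded the share of bases there by 1.73 and 1.76 on chromosome 3, the lowest, and by 2.85 and 2.82 on chromosome 11 and 2.84 and 2.82 on chromosome 10, the highest. Chromosomes 1 and 2 were also low, between 1.89 and 2.00. The chromosomes with the densest H3K4me3 thus had the smallest excess. The share of bases near H3K4me3 enters the excess and moves with that density, from 12.2% on chromosome 11 to 19.05% on chromosome 3, while the share of summits moved less, from 34.4% and 34.8% to 32.9% and 33.5%.

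**Figure D3:**
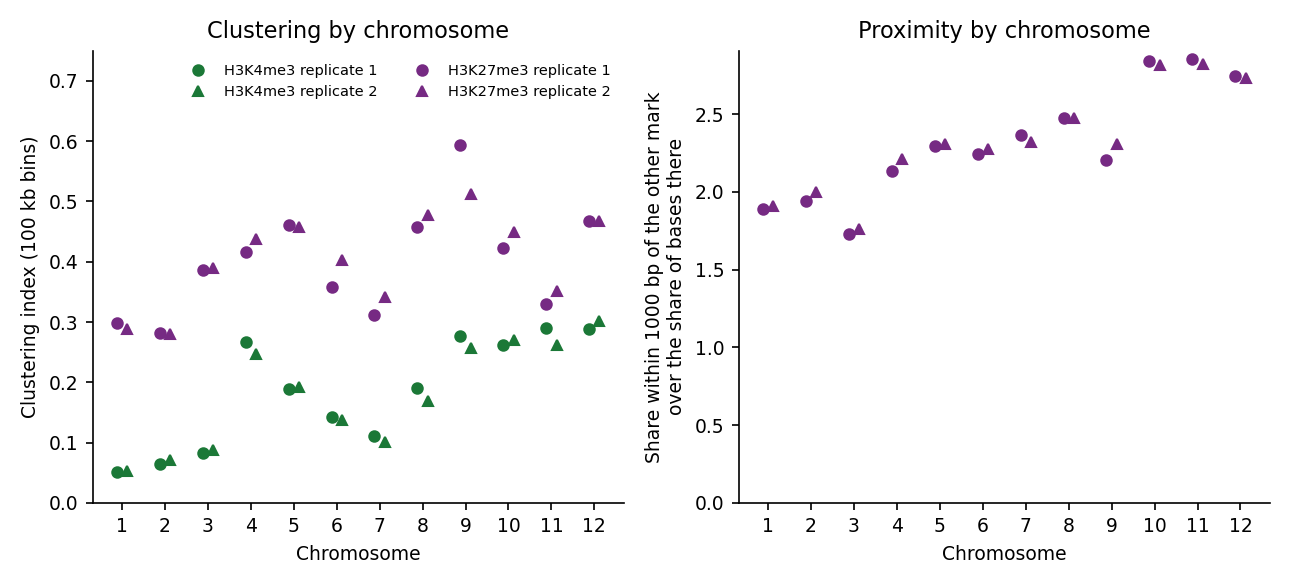
Left, clustering index in bins of 100 kb on each of the 12 chromosomes for the 2 libraries of each mark; right, the share of H3K27me3 summits within 1000 bp of an H3K4me3 summit over the share of bases there, for each H3K27me3 library. H3K27me3 lies above H3K4me3 on all 12 chromosomes at left, and at right every chromosome is above 1, from 1.73 on chromosome 3 to 2.85 on chromosome 11.

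Bins of 1 Mb showed where along the chromosomes each mark prevailed. In 163 of 375 bins (43.5%) both H3K27me3 libraries had a higher relative density than both H3K4me3 libraries, and in 168 bins (44.8%) both had a lower one. Chromosomes 11 and 10 stood above that background for H3K27me3, with 22 of 30 bins (73.3%) and 17 of 25 bins (68.0%). Chromosome 3 stood below it, with 7 of 38 bins (18.4%), and had 28 bins (73.7%) with the lower H3K27me3 density. The peak counts of the marks moved together over broad regions and less over short ones. As a description over bins, which share their libraries and are not independent, Spearman's rho between the marks was 0.638 to 0.647 over 375 bins of 1 Mb and 0.301 to 0.314 over 3786 bins of 100 kb. Replicates of 1 mark had rho of 0.950 to 0.991 over the same bins.

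Each chromosome was also divided into 20 segments of 5% of its called length, and the peaks of the 12 chromosomes were summed by segment. Both marks were sparse in the middle and dense towards the ends. H3K4me3 was lowest in the eighth segment, at 0.593 and 0.594 of its mean, and H3K27me3 in the ninth, at 0.566 and 0.550. H3K4me3 rose towards the right-hand end, to 1.46 and 1.47 in the last segment. H3K27me3 was highest in the sixteenth, between 75% and 80% of the length, at 1.32 and 1.33, where H3K4me3 was at 1.21 and 1.22. In the last segment H3K27me3 was at 1.29 and 1.32, below both H3K4me3 libraries. Both marks were alike in the first segment, at 1.18 to 1.204. These sums do not describe each chromosome. Segments of different chromosomes are not matched to arms.

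**Figure D4:**
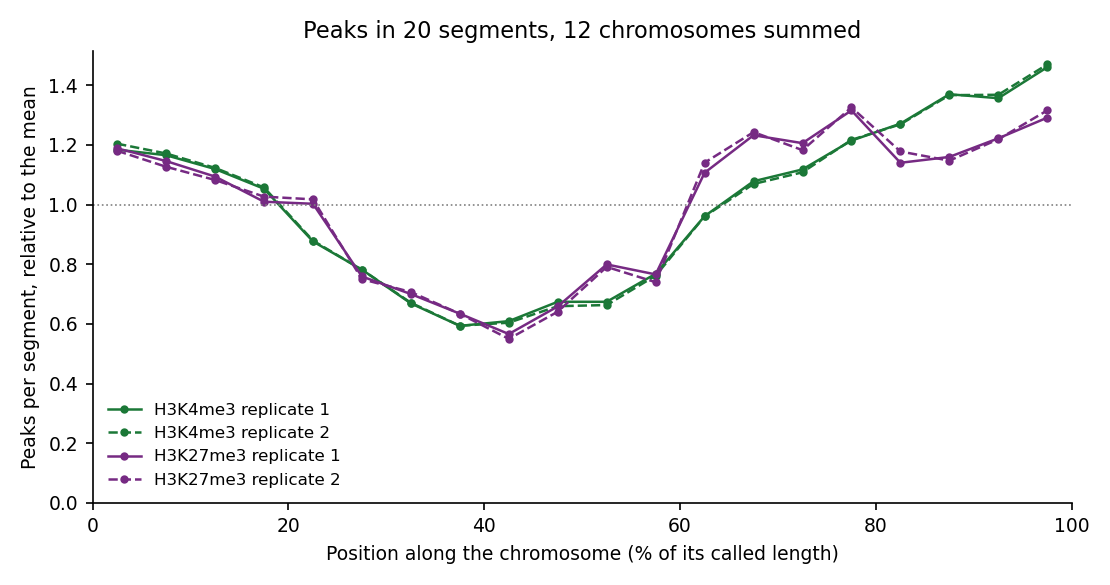
Peaks per segment, summed over 12 chromosomes and relative to the library's mean (dotted line), in 20 segments of 5% of the called length, for the 2 libraries of each mark. Both marks are at 0.550 to 0.634 between 35% and 45% of the length, and H3K27me3 is above H3K4me3 at 75% to 80% (1.32 and 1.33 against 1.21 and 1.22) and below it at the right-hand end.

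Peak widths differed in shape more than in the middle. The median width was 822 and 831 bp in H3K4me3 and 789 and 767 bp in H3K27me3, or 826.5 ± 6.36 and 778 ± 15.6 bp (SD, n = 2 each). The ratio was 0.941, with both H3K27me3 libraries below both H3K4me3 libraries (two-sided exact permutation p 0.333). The direction depended on the threshold, and among peaks of fold 4 or more the ratio was 1.12. Among peaks that overlapped the other replicate it was 0.991 and the libraries of the marks overlapped (exact permutation p 0.667).

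H3K27me3 held both the narrower and the wider peaks. Its widths lay below both H3K4me3 libraries at every percentile from 1 to 58 and above them at every percentile from 66 to 99. The 10th percentile was 342 and 339 bp in H3K27me3 against 382 and 380 bp in H3K4me3, and the 90th 1769 and 1701 bp against 1502 and 1508 bp. Peaks over 2000 bp made up 5.82% and 5.11% of H3K27me3 and 2.19% and 2.35% of H3K4me3. On each of the 12 chromosomes the median width was lower and the share over 2000 bp higher in H3K27me3. Wide H3K27me3 peaks were found near H3K4me3 more often than the rest, with 42.7% of 1007 and 44.0% of 898 within 500 bp of an H3K4me3 summit, against 33.6% and 34.5% of the other peaks. Signal outside the called peaks was not analysed here.

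Fold enrichment followed a similar course. The median fold was 3.70 and 3.64 in H3K4me3 and 3.42 and 3.52 in H3K27me3, or 3.67 ± 0.0409 and 3.47 ± 0.0684 (SD, n = 2 each), a ratio of 0.946 (two-sided exact permutation p 0.333). Among peaks with a fold of at least 4, a choice made on the measure itself, the ratio was 1.04. The full range was wider in H3K27me3. Its 10th percentile was 2.27 and 2.33 against 2.60 and 2.54, and its 99th percentile 7.91 and 8.29 against 7.28 and 7.17. A fold of at least 10 was reached by 40 and 44 H3K27me3 peaks and by 8 and 9 H3K4me3 peaks, and the highest folds were 30.0 and 30.5 against 23.8 and 24.6. A fold under 2 was held by 4.01% and 3.28% of H3K27me3 peaks and by 0.417% and 0.492% of H3K4me3 peaks.

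**Figure D5:**
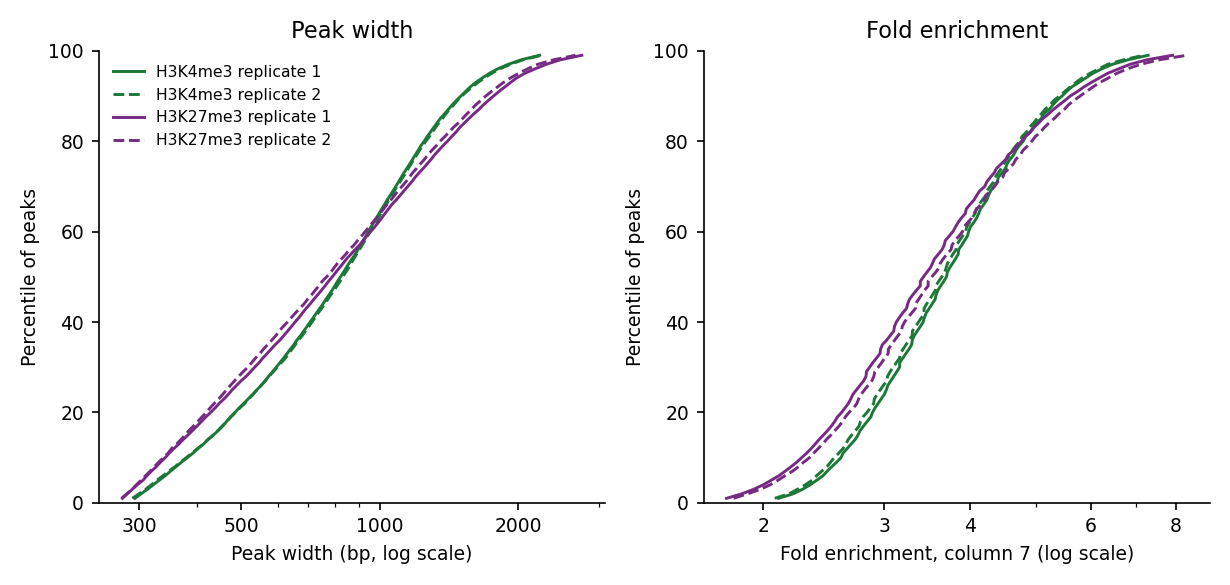
Percentiles 1 to 99 of peak width (bp, left) and of the authors' fold enrichment in column 7 of the lists (right), both on log axes, for the 2 libraries of each mark. In both panels the H3K27me3 curves start at lower values and end at higher ones: widths cross between percentiles 58 and 66, and folds between percentiles 68 and 82.

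The low folds of H3K27me3 went with a high local background. The number of reads over the summit and over its background was solved from the deposited fold and p of each peak. A whole number of summit reads gave the deposited -log10 p within 0.01 for over 99.9% of the peaks of each library. Median summit coverage was 52 and 51 reads in H3K27me3 and 39 and 40 in H3K4me3, and the 90th percentile was 110 and 111 against 58 and 59. Median background was 12.4 and 11.9 reads in H3K27me3 and 9.26 and 9.61 in H3K4me3, while the lowest background, the genome-wide floor, was 6.08 and 5.90 against 6.28 and 6.58. H3K27me3 summits thus had more reads than H3K4me3 summits, from similar floors, and yet a lower median fold.

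A local background more than 4 times the floor was found at 4104 and 4077 H3K27me3 peaks (23.7% and 23.2%) and at 125 and 120 H3K4me3 peaks (0.413% and 0.386%). These H3K27me3 peaks had a high median coverage of 99 and 98 reads and a low median fold of 2.58 and 2.66. The H3K4me3 peaks picked in this way had 87 and 98 reads and folds of 2.29 and 2.27. Both traits follow at least in part from the selection, since background divides the fold and a peak over a high background needs many reads. H3K27me3 peaks with such a background were less often close to H3K4me3, and the few such H3K4me3 peaks were more often close to H3K27me3. An H3K4me3 summit lay within 500 bp of 24.4% and 25.5% of these H3K27me3 peaks and of 37.2% and 37.8% of the other H3K27me3 peaks. An H3K27me3 summit lay within 500 bp of 66.4% and 73.3% of the H3K4me3 peaks with a high background and of 18.7% and 18.9% of the others.

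Regions found in both replicates were named by position, in the coordinates of the Azucena lists, 1-based, with the build not given in the sources used here. No gene or base sequence is given for them, because no genome of these coordinates was at hand. A reproducible region is a merged region of both replicates that holds a peak of each. On the 12 chromosomes there were 27223 for H3K4me3 and 14872 for H3K27me3. Regions separated by gaps of at most 5000 bp were joined into chains. Chains of 5 or more regions held 8.26% of H3K27me3 regions in 208 chains and 4.53% of H3K4me3 regions in 220 chains.

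The chains with the most regions of each mark fell in 1 place. The H3K27me3 chain with the most regions lay at chr1:34220351-34285572 and held 18 regions in 65.2 kb, with a mean fold of 2.86. Within it lay 18 H3K4me3 regions, among them the H3K4me3 chain with the most regions, at chr1:34224304-34265135, with 14 regions in 40.8 kb. The second H3K27me3 chain, at chr4:31534156-31565396, held 10 regions in 31.2 kb and 10 H3K4me3 regions. Both loci thus carried dense peaks of both marks. The third chain was different, since chr8:402427-431834 held 10 H3K27me3 regions in 29.4 kb and 1 H3K4me3 region. The second H3K4me3 chain, chr8:936944-991378, held 12 regions and was the longest of that mark at 54.4 kb, with 2 H3K27me3 regions. Another 2 H3K4me3 chains tied at 9 regions. The longer, chr3:37902955-37932975, spanned 30.0 kb with 2 H3K27me3 regions, and the other, chr4:31541356-31565340, spanned 24.0 kb with 8.

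The widest reproducible H3K27me3 region covered 5027 bp at chr5:24187249-24192275, with folds of 2.73 and 3.09 in replicates 1 and 2, and its summit lay 48 bp from an H3K4me3 summit. It was followed by 4474 bp at chr2:27982418-27986891 and 4350 bp at chr11:21887689-21892038. The widest H3K4me3 regions were shorter, at 3942 bp (chr5:30401068-30405009), 3909 bp (chr5:26834715-26838623) and 3794 bp (chr1:3755449-3759242). None of these 3 overlapped a reproducible H3K27me3 region, and their summits lay 3139, 33024 and 2823 bp from the nearest H3K27me3 summit.

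Some H3K27me3 regions lay in stretches with no H3K4me3. The reproducible H3K27me3 region farthest from any H3K4me3 summit was chr12:16565948-16566513, at 131042 bp, with folds of 3.25 and 4.64. Next came chr4:14644025-14645485, at 120726 bp with folds of 6.35 and 5.72, and chr4:16064452-16065049, at 110167 bp with folds of 2.96 and 3.04. The first of them lay in the longest H3K4me3-free stretch of chromosome 12, at chr12:16407534-16697281. That stretch spanned 290 kb and held 6 H3K27me3 summits in each replicate. The second lay in the longest such stretch of chromosome 4, at chr4:14523820-14777463, which spanned 254 kb and held 3 and 2 H3K27me3 summits in replicates 1 and 2.

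Some of the longest H3K4me3-free stretches were empty of H3K27me3 too. The longest was chr8:16187048-16608303, 421 kb with no H3K27me3 summit in either replicate. The second, chr11:28385687-28755184, spanned 369 kb and held 0 and 3 H3K27me3 summits in replicates 1 and 2. The third, chr1:17293696-17645389, spanned 352 kb and held none. Taking the longest stretch of each chromosome, 7 of 12 held no H3K27me3 summit in replicate 1 and 6 of 12 none in replicate 2.

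The unplaced contigs formed a small class with other properties. Their share of all peaks was 0.0826% (95% Wilson interval 0.0560 to 0.122) and 0.161% (0.122 to 0.212) in H3K4me3 and 0.288% (0.219 to 0.379) and 0.301% (0.230 to 0.393) in H3K27me3. Both H3K27me3 libraries lay above both H3K4me3 libraries, with a ratio of 2.42 (two-sided exact permutation p 0.333). The H3K4me3 libraries also differed from each other, at 0.0826% and 0.161%, and the ratio was 1.83 without H3K4me3 replicate 1 and 3.56 without H3K4me3 replicate 2.

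Peaks were found on 18 contigs, of which 9 held peaks in all 4 libraries. The contigs with the most peaks were contig 34, with 4 and 9 H3K4me3 and 10 and 9 H3K27me3 peaks, contig 42, with 4, 8, 7 and 10 in the same order, and contig 40, with 4, 7, 7 and 8. These 3 held 51 of 103 H3K27me3 and 36 of 75 H3K4me3 peaks. Contig peaks were narrower than those of the chromosomes, with medians of 431 and 404 bp in H3K4me3 and 385.5 and 392 bp in H3K27me3, and none exceeded 2000 bp.

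On contigs, peaks overlapped the other mark more often than on the chromosomes, and the other replicate of their own mark less often. Of the contig peaks, 84% and 86% in H3K4me3 and 74% and 69.8% in H3K27me3 overlapped a peak of the other mark in either replicate, against 22.0% and 22.3%, and 39.5% and 39.8%, on the chromosomes. The other replicate of the same mark was overlapped by 88% and 44% of contig peaks in H3K4me3 and by 68% and 64.2% in H3K27me3. On the chromosomes these shares were 91.9% and 89.3%, and 87.5% and 87.4%. In H3K4me3 replicate 2 and both H3K27me3 libraries, contig peaks thus met the other mark, counted over both its lists, more often than their own replicate. The median distance to the nearest summit of the other mark was 24.5 and 20 bp from H3K4me3 and 44 and 44 bp from H3K27me3. Median fold was 4.397 and 3.67 in H3K4me3 and 3.53 and 3.77 in H3K27me3, each above the median of that library on the chromosomes. The local background was at or near the floor there, with medians of 6.28 and 6.58 reads in H3K4me3 and 6.77 and 5.90 in H3K27me3.

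IR64, an indica cultivar profiled in the same way with 2 libraries per mark, served to show where Azucena stood apart. Its lists are in other coordinates, so only summaries were compared, by permuting cultivar labels within each mark (36 relabellings, smallest exact permutation p 0.0556) with adjustment over 4 measures. The ratio of H3K27me3 to H3K4me3 median spacing was 1.13 in Azucena and 2.31 in IR64 (exact permutation p 0.0556, adjusted 0.111). This order depended on the setting, since the spacing ratios were 1.81 and 1.68 among peaks of fold 4 or more, and 0.651 and 0.752 with equal peak numbers. That of median fold was 0.946 and 1.198 (exact permutation p 0.0556, adjusted 0.111), and that of median width 0.941 and 0.764 (exact permutation p 0.278, adjusted 0.370). The ratios of the clustering index were 2.21 and 2.06 (exact permutation p 0.667 before and after adjustment), and their order turned in 4 settings, with 2.48 and 2.63 at a −log10 q of at least 5, 2.23 and 4.14 at a fold of at least 4, 3.10 and 5.19 with equal peak numbers, and 2.30 and 2.58 among peaks found in both replicates. None passed the adjusted threshold of 0.05, which this design could not reach.

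The distance between the marks was 2686 ± 44.0 bp in Azucena and 1941 ± 675 bp in IR64 (SD, n = 2 H3K27me3 libraries each, exact permutation p 0.333, the smallest possible). The share within 1000 bp was 34.9% ± 0.257 and 42.0% ± 4.99, and its excess over the bases was 2.23 ± 0.0164 and 2.49 ± 0.296 (n = 2 each, exact permutation p 0.333 for both). In the authors' table the H3K27me3 libraries of IR64 had 47.91 and 9.0 M uniquely aligned reads. A difference of that size was not seen in their lists, with background floors of 2.40 and 1.85 reads and median summit coverage of 24 and 23. The floors were lower than in Azucena, at 6.08 and 5.90. The part of depth and background in the cultivar difference was not tested.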

How the data were processed

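The authors deposited a separate peak list for each library. The submitters' processing notes name MACS2 2.1.0, Bowtie2, fastp 0.20.1 and Bismark 0.22.3, but give them no role. Which build, control library or duplicate filter was used is not given in the sources used here. Each deposited row holds a score, the fold enrichment at the summit (a ratio), its −log10 p and −log10 q, and the summit offset. The lowest −log10 q was 2.01 to 2.03, so weaker sites are not in the lists. The peak numbers in the authors' table equal the list lengths. Bisulfite and flag-leaf samples were not used here.

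Each library gave 1 value per measure, since peaks are not replicates. Marks were compared by a two-sided exact permutation test over libraries. Distances and bin correlations are descriptions. Coverage and background were solved from fold and p, assuming a Poisson tail and a fold of (reads + 1) over (background + 1). Contigs were left out of every measure except their own. The functions for summit distance, shares of bases, clustering index and coverage were tested on simulated data. Coverage was tested only at backgrounds below the medians of the Azucena lists. Those for the exact permutation p of the marks, reproducible regions and edge distances were tested on small examples. The remaining functions, among them spacing, overlap, merging, the cultivar permutation and the adjustment, were not tested. Python 3.11.15, numpy 2.4.6 and scipy 1.17.1 were used. No genome or annotation of these coordinates was at hand.

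Regions were named by rule: the longest H3K4me3-free stretch of each chromosome, with the 3 longest in full; the 3 chains with the most regions and the 3 widest regions per mark; the 3 H3K27me3 regions farthest from H3K4me3; and the 3 contigs with the most peaks. The H3K4me3-free stretches of chromosomes 4 and 12 and the run of chromosome 12 were singled out after their values were seen. The members, measures and rules were chosen with earlier results of these data known. Alternatives were a −log10 q of at least 5, a fold of at least 4, equal peak numbers, each library left out, only peaks found in both replicates, peaks within 500 bp merged, other positions, bins and distances, chromosome ends left out, and a block on replicate number.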

Additional observations from a re-analysis of the deposited data

Results flagged for a closer look

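The ratio of H3K27me3 to H3K4me3 median fold enrichment pointed in opposite directions in the cultivars. It was 0.946 in Azucena, where both H3K27me3 libraries lay below both H3K4me3 libraries, and 1.198 in IR64, where both lay above. The exact permutation p of the difference was 0.0556, the smallest that 36 relabellings allow, and 0.111 after adjustment over 4 measures. With equal peak numbers the ratios were 0.797 and 0.897, both below 1. Among peaks with a fold of at least 4 they were 1.04 and 1.05, which describes the upper range of fold only, since these peaks were selected on the measure itself. The background floor moved with it, at 6.08 and 5.90 reads in the H3K27me3 libraries of Azucena and 2.40 and 1.85 in those of IR64, and its part in the difference was not tested.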

How the results depend on the processing

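Of 63 alternative values of the ratios between marks, 60 kept their direction. Settings that left out 1 library or blocked on replicate number could not reverse it, since the libraries of the marks did not overlap in the main setting. The replicate block and the crossed block also gave the same ratios, so the tally overstates how many alternatives could have turned a result. The 3 that reversed were median width and median fold among peaks with a fold of at least 4 (1.12 and 1.04, where fold itself selects the peaks), and median spacing with equal peak numbers (0.651), and the cause was not tested. Median width was 0.981 with a −log10 q of at least 5, 0.991 among peaks found in both replicates and 0.980 with peaks merged, where the libraries of the marks overlapped (exact permutation p 0.667 each). The clustering ratio stayed between 1.16 (bins of 1 Mb) and 3.43 (bins of 50 kb).

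The median distance and the excess moved by more than the SD between replicates in 16 of 31 alternatives. The distance was 3591 bp with a −log10 q of at least 5, 8841 bp with a fold of at least 4, 7188 bp with equal peak numbers, 3298 bp among peaks found in both replicates, 3249 bp to reproducible H3K4me3 regions and 1845 bp edge to edge. With 1 library left out it ranged from 2563 to 2809 bp. Removing H3K4me3 peaks by construction lengthens it. The excess was 2.20, 3.11 and 1.78 under the first 3 settings, 2.29 with peaks merged, 2.29 from midpoints, 3.57 within 500 bp, 1.15 within 5000 bp and 2.01 against bases of the same 1 Mb bin, above 1 in all.

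Nothing in the labels pairs replicate numbers across marks, and the deviations of same-numbered libraries had r = -0.102 over 375 bins of 1 Mb. With the replicate block the values were 0.941 for width, 0.946 for fold, 1.13 for spacing, 2.21 for clustering, 2.56 for the contig share, 2680.2 bp for the distance and 2.23 for the excess. The crossed pairing, added after seeing the data, gave the same ratios, a distance of 2692 bp and an excess of 2.23. Since the libraries of the marks did not overlap in these measures, neither block could reverse the direction of a ratio. With 2 libraries per mark no exact permutation p could fall below 0.333, or 0.5 with the block, so depth was not what limited the tests.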
